A study of Mus musculus with 16 samples.

Results

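The comparison described here set 13 hearts of Hap-I mice against 3 hearts of C57 mice, which together make up all 16 libraries of the series. The Hap-I animals are transgenic C57/BL6 mice with the human gene for the angiotensin II type 1 receptor, in the version called haplotype I. They fall into 3 groups: aged mice (n = 4), aged mice on a western diet (n = 5) and adult mice on a western diet (n = 4). The C57 mice were adult C57/BL6 animals without the transgene (n = 3), and their label names no diet. For the adult Hap-I mice the design text names no diet but the labels of all 4 samples give western diet, and those labels were followed. No C57 group is aged or labelled with a western diet, so genotype, age and diet cannot be told apart in any difference given here. The promoter that drives the transgene, the ages in months, the sexes and the hours of collection are not given in the sources used here, and the human transcript was not analysed here. The genes of interest are those that moved the same way in each of the 3 Hap-I groups, called at an adjusted p under 0.05 in all 3 comparisons with 1 sign. They numbered 214 of the 11415 genes that reached 1 TPM in at least 3 libraries. The 3 comparisons share the same 3 C57 hearts, so they are not independent repeats.

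Angiotensin II acts on its type 1 receptor in heart muscle, vessels, kidney and adrenal gland, and signalling through G proteins raises vascular tone, promotes salt retention and, when sustained, cardiomyocyte growth and fibrosis. Proteins that a cell secretes or places in its membranes fold in the endoplasmic reticulum (ER), where chaperones such as Hspa5 assist them. The unfolded protein response is the gene program that raises these chaperones when folding lags, in part through a promoter sequence called the ER stress response element (ERSE). The circadian clock of the heart is a loop in which Arntl and Clock drive the genes of their own repressors and of output factors such as Dbp, Tef and Hlf, many of them through E-boxes.

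Members of the ER and clock groups were among the genes that fell, and 4 of their promoters are printed here because they hold the element for which each group is known. Each is the 250 bases before the start in RefSeq's GRCm38.p6 annotation, 5′ to 3′ on the gene's own strand, with the element in capitals. Creld2 lies at chr15:88819396-88819645 on the plus strand, Calr at chr8:84846932-84847181 on the minus strand, Hspa5 at chr2:34771840-34772089 on the plus strand and Ciart at chr3:95882229-95882478 on the minus strand.
Creld2: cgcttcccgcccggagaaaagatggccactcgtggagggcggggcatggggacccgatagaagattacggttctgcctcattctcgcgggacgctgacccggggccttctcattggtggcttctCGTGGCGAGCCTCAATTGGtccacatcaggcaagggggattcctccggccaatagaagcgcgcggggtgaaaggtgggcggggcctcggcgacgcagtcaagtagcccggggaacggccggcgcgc
Calr: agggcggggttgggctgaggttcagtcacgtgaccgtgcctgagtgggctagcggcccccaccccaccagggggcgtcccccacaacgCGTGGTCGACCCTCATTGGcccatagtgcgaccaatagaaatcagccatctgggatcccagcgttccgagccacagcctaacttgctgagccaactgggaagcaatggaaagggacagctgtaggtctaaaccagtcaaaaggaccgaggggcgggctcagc
Hspa5: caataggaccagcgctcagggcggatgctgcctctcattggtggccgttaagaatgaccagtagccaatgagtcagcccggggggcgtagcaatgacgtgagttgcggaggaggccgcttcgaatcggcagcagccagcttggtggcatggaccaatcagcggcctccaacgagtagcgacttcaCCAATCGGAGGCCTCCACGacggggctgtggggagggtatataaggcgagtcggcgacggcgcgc
Ciart: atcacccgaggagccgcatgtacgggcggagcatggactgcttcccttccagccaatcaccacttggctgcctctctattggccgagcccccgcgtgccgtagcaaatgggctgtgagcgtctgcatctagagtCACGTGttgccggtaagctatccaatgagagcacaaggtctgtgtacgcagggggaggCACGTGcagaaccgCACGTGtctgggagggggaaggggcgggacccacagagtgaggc
In the first 3 promoters the capitals mark the ERSE, searched on both strands as CCAAT, any 9 bases and CCACG, which reads in the reverse direction in Creld2 and Calr. It begins 126, 162 and 65 bases before the start. In Ciart the capitals mark 3 E-boxes, CACGTG, at 116, 58 and 44 bases before the start. None of these matches overlaps a match of the other motif. The windows searched ran from 250 bases before to 50 bases after the start, and 8734 of the genes kept had one. ERSE letters stood in 13 of them (0.149%), in 7 of 20 ER genes on the list described below (35%) and in 4 of the 13 that were called lower, which are Calr, Creld2, Hsp90b1 and Hspa5. The E-box stood in 1038 of the 8734 windows (11.9%), in 5 of 11 clock repressor and output genes (45.5%) and in 3 of the 7 that were called lower, which are Ciart, Cry1 and Tef. A match describes these letters only and shows no binding.

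The values are TPM, length-corrected abundances that keep no sequencing depth, so the depth is unknown and errors are spreads between hearts. They were divided by a size factor per library and are called scaled TPM. The libraries detected 9553 to 11175 genes at 1 TPM or more in Hap-I hearts and 10216 to 10586 in C57 hearts. Mitochondrially encoded genes took 39.1% ± 3.94 of the TPM in Hap-I hearts (SD, n = 13) and 35.5% ± 4.62 in C57 hearts (SD, n = 3), a difference that an exact two-sided permutation test did not separate (p = 0.189, smallest possible 0.00179). This share left out Gm28437, a nuclear copy whose sequence all lies in mt-Co3. Gm28437 stood at 23970 to 63396 scaled TPM in Hap-I hearts, against 8972, 8878 and 18814 in C57 hearts. The share with Gm28437 included was not tested. Ventricular cardiomyocyte markers summed to 51874 to 68284 scaled TPM in Hap-I hearts and 64897 to 72233 in C57 hearts, so cardiomyocyte markers were present in every library. The list includes genes of cardiomyocytes in general, so this sum does not set ventricle apart from atrium. The 10 atrial markers varied widely among the hearts of both genotypes. All 10 had negative log2 fold changes in Hap-I hearts against C57 (median -2.15), with 7 at an unadjusted limma p under 0.05 and 0 called. They summed to 55.6 to 5222 scaled TPM in Hap-I hearts (median 194) and to 6862, 255 and 4661 in C57 hearts 1, 2 and 3. The 15 fibroblast markers summed to 424 to 984 scaled TPM in Hap-I hearts and 1037 to 1327 in C57 hearts, without overlap. The 15 endothelial markers summed to 629 to 1101 in Hap-I hearts and 983 to 1248 in C57 hearts, and the 8 epicardial and mesothelial markers to 1.79 to 7.09 in Hap-I hearts and 5.94 to 17.1 in C57 hearts. Scgb1a1, a protein of airway secretory cells, was at 0 to 4.52 scaled TPM in Hap-I hearts and at 24.1, 1.48 and 3.02 in C57 hearts 1, 2 and 3. Y-linked transcripts were near 0 in 5 of 13 Hap-I hearts and present in all 3 C57 hearts. The 5 were aged western-diet hearts 1, 2 and 3 and adult western-diet hearts 1 and 2. The Hap-I groups were thus not balanced for these transcripts, and all hearts of the aged group without a diet label had them. In bulk tissue, fewer cells of a type and less RNA per cell cannot be told apart.

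**Figure D1:**
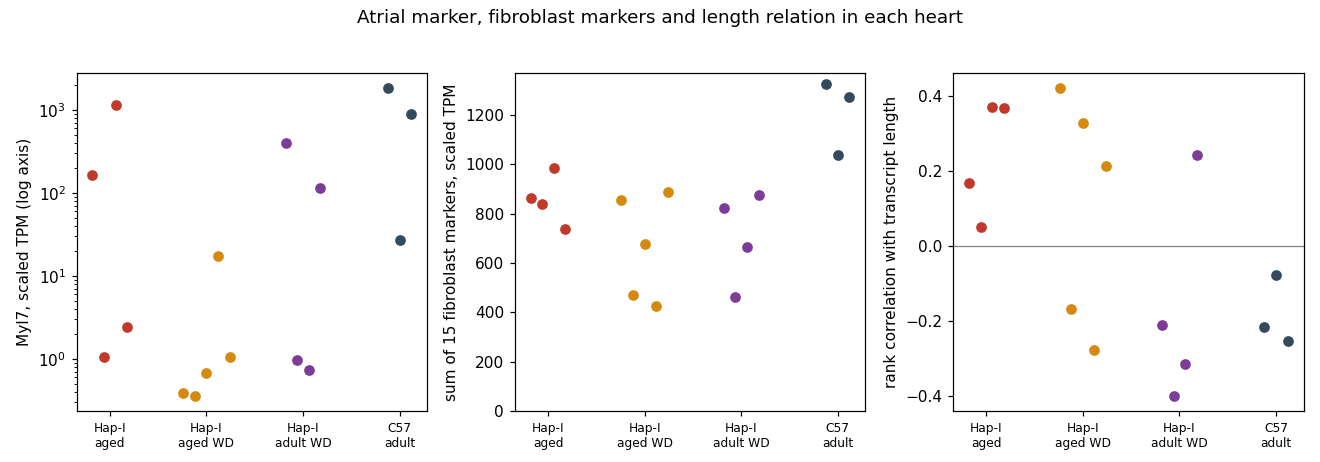
Each point is 1 heart. The left panel gives Myl7 in scaled TPM on a log axis, the middle panel the summed level of 15 fibroblast markers in scaled TPM, and the right panel the rank correlation, across genes, of a heart's deviation from the gene means with transcript length. WD is western diet. Myl7 lies at 1843, 26.8 and 885 in the C57 hearts. The fibroblast sum is at most 984 in the Hap-I hearts and at least 1037 in the C57 hearts. The length relation is negative in all 3 C57 hearts (-0.252 to -0.078) and in some Hap-I hearts (-0.398 to 0.421 over all 13).

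Over all 11415 genes, 1075 were higher (9.42%) and 720 lower (6.31%) in Hap-I hearts, with the 3 groups weighted equally, than in C57, by limma with Benjamini-Hochberg adjustment. Of these, 1070 had positive and 717 had negative fold changes in each of the 3 groups. The single comparisons called 820 genes higher (7.18%) and 463 lower (4.06%) in the aged group, 1406 higher (12.3%) and 1092 lower (9.57%) in the aged western-diet group, and 223 higher (1.95%) and 171 lower (1.5%) in the adult western-diet group. Called in each group (1.87% of genes) were 136 higher genes (1.19%) and 78 lower genes (0.683%), and all 214 were also called in the pooled comparison. Their changes were moderate: the median log2 fold change was 0.63 among the higher and -0.64 among the lower genes, and 25 and 8 of them exceeded a log2 fold change of 1 in size. In 130 of the 136 and 70 of the 78, the 13 Hap-I hearts all lay on 1 side of the 3 C57 hearts, against 4.63% of all genes that lay wholly above and 3.12% wholly below. The genes were called on these same values, so the lack of overlap largely restates the calls and is no added support. The counts depended on single C57 hearts. Without C57 heart 1 the genes called in each group fell in number to 22 higher and 12 lower, and without C57 heart 3 to 24 and 16. Without C57 heart 2, the C57 heart with the lowest sum of atrial markers, they rose to 150 and 96. Of the 214 genes, 181 stayed called in the pooled comparison whichever 1 library was left out, and 23 stayed called in each of the 3 groups. Without scaling, 178 genes were higher and 205 lower, a share of higher calls below that of the scaled data. The limma p-values set a difference in group means against the spread among hearts within the groups. That spread holds differences between libraries as well as between animals.

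The 12 leading higher genes were chosen for the largest fold changes among genes called in each group. The choice also required no overlap between Hap-I and C57 hearts and a mean of 5 scaled TPM or more in Hap-I hearts. For 4 of these genes other genes hold 42% or more of the sequence, and those are given last. Of the other 8, the largest fold change was that of Arhgap5 (chromosome 12, 52503972 to 52571975 in GRCm38), a GTPase-activating protein. It stood at 2.34 to 7.23 scaled TPM in Hap-I hearts (median 4.69), against 0.373, 1.48 and 0.467 in C57 hearts (log2 fold change 1.77 ± 0.21 SE, limma adjusted p = 0.000264). Golga4, a tethering protein of the trans-Golgi network on chromosome 9, stood at 16.7 to 37.7 in Hap-I hearts (median 29.9), against 9.54, 13.3 and 10.3 in C57 hearts (1.28 ± 0.17, adjusted p = 0.000613). As the choice required, the highest C57 heart lay below the lowest Hap-I heart in both genes. Hipk2, a nuclear kinase that acts on transcription factors and p53, stood at 2.94 to 12.8 scaled TPM in Hap-I hearts (median 5.28), against 1.00, 1.55 and 1.11 in C57 hearts (1.66 ± 0.27, adjusted p = 0.00168). Hipk2 was highest in the aged western-diet group, with a log2 fold change of 2.29 there, 1.40 in the aged group and 1.28 in the adult western-diet group, but the difference among the groups did not pass (F test adjusted p = 0.069).

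Metabolic enzymes and a channel subunit made up the next leading genes. Pfkfb2 (chromosome 1, 130689182 to 130729253) is the cardiac isoform of the bifunctional enzyme that sets the level of an activator of glycolysis. Pfkfb2 stood at 6.76 to 19.02 scaled TPM in Hap-I hearts (median 12.4), against 4.64, 4.95 and 3.88 in C57 hearts (1.21 ± 0.14, adjusted p = 0.000222). Cds1, which makes the phospholipid precursor CDP-diacylglycerol, stood at 2.43 to 9.16 in Hap-I hearts (median 5.61), against 1.47, 2.35 and 1.32 in C57 hearts (1.19 ± 0.14, adjusted p = 0.000235). Nt5c1a, a cytosolic nucleotidase of muscle that makes adenosine from AMP, stood at 2.72 to 8.82 in Hap-I hearts (median 4.99), against 1.15, 2.57 and 1.23 in C57 hearts (1.36 ± 0.21, adjusted p = 0.00136). In all 3 genes the aged western-diet group had the largest and the adult western-diet group the smallest fold change. Scn4b, an auxiliary subunit of voltage-gated sodium channels on chromosome 9, stood at 13.7 to 28.7 in Hap-I hearts (median 20.8), against 5.91, 10.01 and 10.4 in C57 hearts (1.15 ± 0.14, adjusted p = 0.000339). Scn4b was the exception to that order, at 0.84 in the aged group, 1.35 in the aged western-diet group and 1.25 in the adult western-diet group. Ighg2c, the constant region of an immunoglobulin G heavy chain, stood at 6.31 to 16.9 in Hap-I hearts (median 10.1), against 2.90, 1.43 and 3.90 in C57 hearts (1.62 ± 0.22, adjusted p = 0.000655). The 14 markers of lymphocytes summed to 9.59 to 24.5 scaled TPM in Hap-I hearts and 10.03 to 15.9 in C57 hearts, and their part in the Ighg2c result was not tested.

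The other 4 leading higher genes are uncertain, because reads of shared sequence are divided among genes by an estimate. Gm10800 on chromosome 2, for which 42% of the 31-base words also occur in other genes, stood at 4.47 to 352 scaled TPM in Hap-I hearts, against 0.364 in C57 heart 1 and listed at 0 in the other 2. Gm15429, a pseudogene on chromosome 1 whose words all lie in Aph1a, stood at 0.199 to 10.8 in Hap-I hearts and was listed at 0 in all 3 C57 hearts. Aph1a itself, a subunit of gamma-secretase, had a log2 difference of -0.06 (adjusted p = 0.65). Gm9762, whose words all lie in Ube2d2a, stood at 8.16 to 19.7 in Hap-I hearts, against 1.71, 0.608 and 7.79 in C57 hearts, while Ube2d2a itself had a log2 difference of -0.22 (adjusted p = 0.0912). Gm28437, a nuclear copy of mitochondrial sequence whose words all lie in mt-Co3, stood at 23970 to 63396 in Hap-I hearts, against 8972, 8878 and 18814 in C57 hearts. For mt-Co3 the log2 difference was -0.28 (adjusted p = 0.523). Gm15429, Gm9762 and Gm28437 were thus listed higher in Hap-I hearts while the gene that holds the same words was not called.

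**Figure D2:**
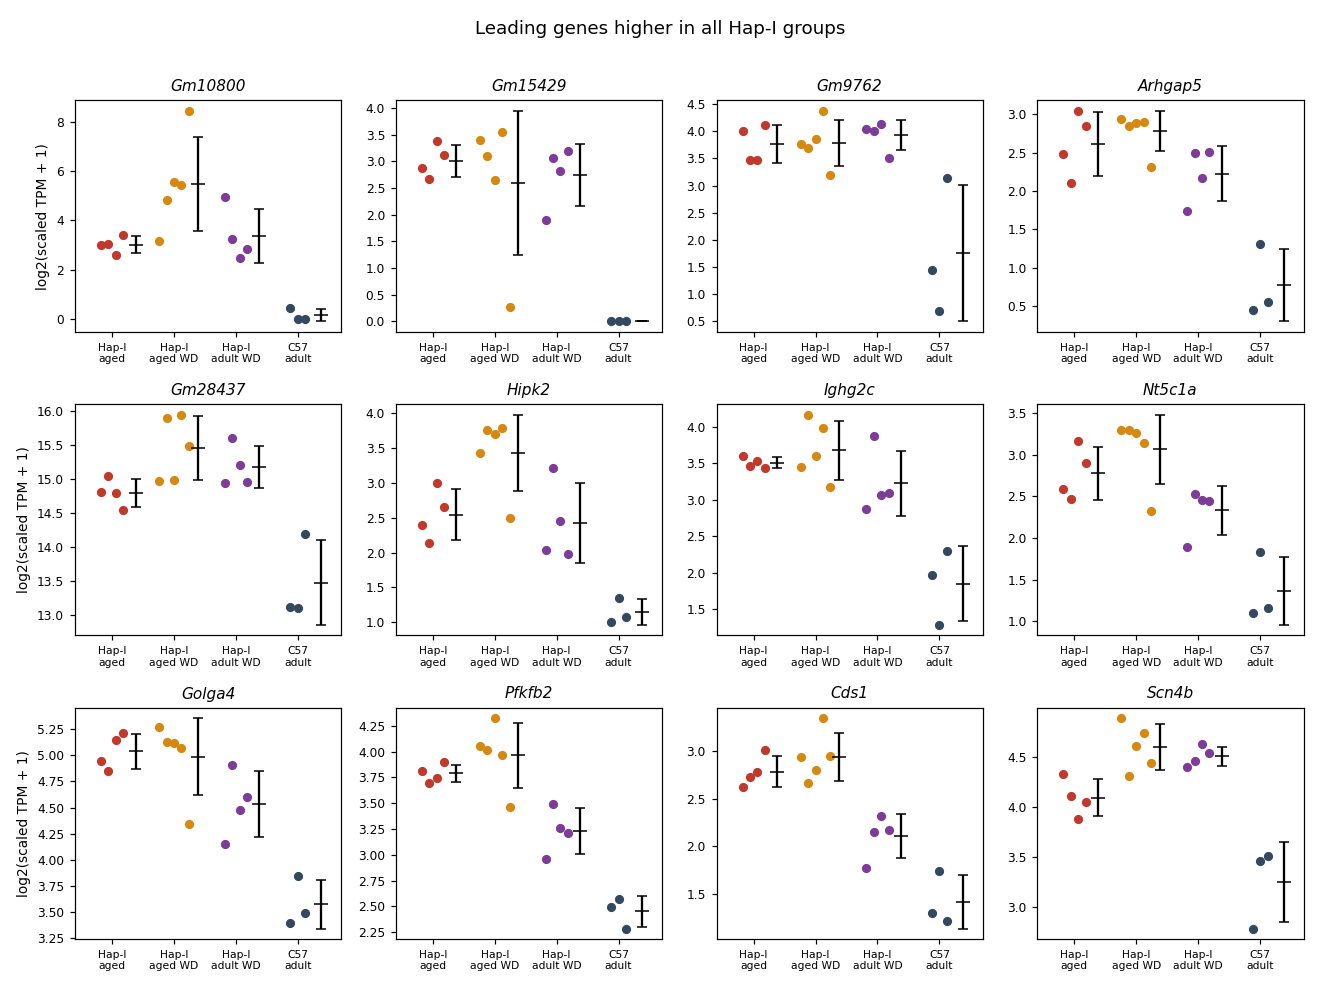
The 12 leading genes that were higher in all 3 Hap-I groups, in log2(scaled TPM + 1). Each point is 1 heart; the black mark and bar beside each group are its mean and SD (n = 4, 5 and 4 Hap-I hearts and 3 C57 hearts; WD is western diet). In every panel the 3 C57 points lie below all 13 Hap-I points, as the choice of genes required.

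The 12 leading lower genes, chosen by the same rule in the other direction, included clock, ER, muscle and vessel genes. Timp4 (chromosome 6, 115241892 to 115252205), the cardiac tissue inhibitor of metalloproteinases, stood at 0.924 to 5.94 scaled TPM in Hap-I hearts (median 3.57), against 7.73, 10.7 and 7.79 in C57 hearts (log2 fold change -1.20 ± 0.20, limma adjusted p = 0.00201). Tcap, also called telethonin, which caps titin at the Z-disc, stood at 917 to 1771 in Hap-I hearts (median 1343), against 2751, 2159 and 2697 in C57 hearts (-0.96 ± 0.13, adjusted p = 0.000613). Phkg1, the muscle catalytic subunit of glycogen phosphorylase kinase, stood at 4.58 to 11.02 in Hap-I hearts (median 6.54), against 16.7, 12.4 and 13.5 in C57 hearts (-0.96 ± 0.18, adjusted p = 0.00306). As the choice required, the lowest C57 heart lay above the highest Hap-I heart in each of these. Ramp2 (chromosome 11, 101246028 to 101259546), the partner that turns the calcitonin-receptor-like receptor into the adrenomedullin receptor, had close fold changes in the 3 groups. It stood at 27.1 to 35.4 in Hap-I hearts (median 29.4), against 59.8, 49.0 and 61.1 in C57 hearts, with log2 fold changes of -0.87, -0.93 and -0.90 in the aged, aged western-diet and adult western-diet groups (pooled -0.90 ± 0.09, adjusted p = 7.31e-05). Other genes hold 31.7% of the words of Ramp2, so its level is less certain.

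Among the other leading lower genes, Tspan4, a tetraspanin, stood at 9.19 to 17.8 scaled TPM in Hap-I hearts (median 14.4), against 26.6, 25.01 and 32.8 in C57 hearts (-0.98 ± 0.11, adjusted p = 0.000222). Slc1a5, the glutamine carrier of the plasma membrane, stood at 3.94 to 7.15 in Hap-I hearts (median 5.30), against 12.3, 9.47 and 9.39 in C57 hearts (-0.82 ± 0.12, adjusted p = 0.001). Cdkn1c, an imprinted inhibitor of cyclin-dependent kinases, stood at 2.34 to 4.36 in Hap-I hearts, against 6.63, 5.32 and 6.33 in C57 hearts (-0.73 ± 0.15, adjusted p = 0.00562), and other genes hold 27.2% of its words. All 3 fell in each Hap-I group. Tsc22d3, also called GILZ and induced by glucocorticoids, stood at 26.3 to 61.4 in Hap-I hearts (median 34.8), against 62.6, 62.7 and 85.2 in C57 hearts (-0.94 ± 0.19, adjusted p = 0.00536), and it was not called without C57 heart 3 or without scaling. The calls of Creld2, Herpud1 and Cdkn1c were also lost without scaling. Of the 14 glucocorticoid-responsive genes on the list, 0 rose and 4 fell (28.6%, against 6.31% of all genes), which were Tsc22d3, Map3k6, Klf9 and Nfkbia. The list median was -0.63 against 0.00 over all genes. Without scaling 0 of them fell, and 2 fell without C57 heart 3 or with a covariate for atrial markers. Klf9, a Krüppel-like repressor that hormones induce, was among the genes lower in each group, at 13.5 to 21.1 scaled TPM in Hap-I hearts against 23.99, 29.4 and 23.6 in C57 hearts (-0.58 ± 0.12, adjusted p = 0.00665).

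**Figure D3:**
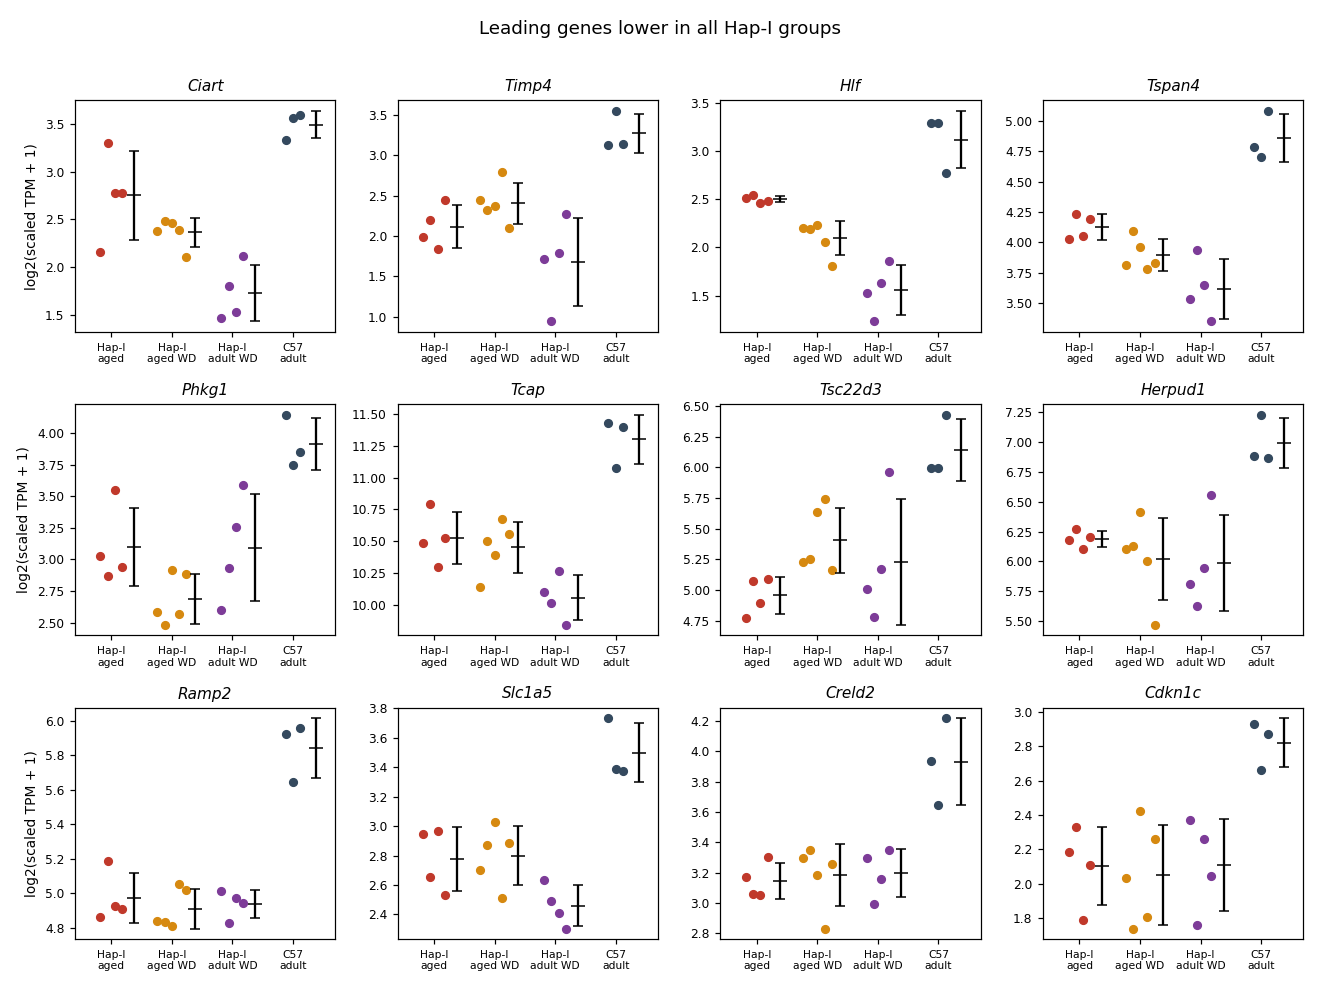
The 12 leading genes that were lower in all 3 Hap-I groups, in log2(scaled TPM + 1). Points are hearts, and the black mark and bar are the group mean and SD (n = 4, 5 and 4 Hap-I hearts and 3 C57 hearts; WD is western diet). All 3 C57 points lie above the 13 Hap-I points in every panel, as the choice of genes required. Ciart and Hlf run lowest in the adult western-diet group.

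ER chaperones and genes of the unfolded protein response were lower in Hap-I hearts. All gene lists used here, this one included, were chosen with earlier results of these data known. Shares of list members called therefore describe these data and are no independent support. Of 22 listed genes 14 fell (63.6%) and 0 rose, where 6.31% of all genes were called lower and 9.42% higher, with a median log2 fold change of -0.53 over the list against 0.00 over all genes. Medians were -0.41 in the aged, -0.57 in the aged western-diet and -0.62 in the adult western-diet group. Herpud1, which links misfolded proteins to ER-associated degradation, stood at 43.2 to 93.2 scaled TPM in Hap-I hearts (median 67.8), against 117, 149 and 116 in C57 hearts (log2 fold change -0.93 ± 0.18, limma adjusted p = 0.00362). Creld2, a secreted chaperone with an ERSE in its promoter, stood at 6.11 to 9.19 in Hap-I hearts (median 8.09), against 14.3, 11.5 and 17.6 in C57 hearts (-0.76 ± 0.12, adjusted p = 0.00147). Its 3 group values were close, at -0.79, -0.75 and -0.73 in the aged, aged western-diet and adult western-diet groups. Dnajb11, a co-chaperone of Hspa5, stood at 15.4 to 22.5 in Hap-I hearts, against 29.1, 26.04 and 29.8 in C57 hearts (-0.55 ± 0.09, adjusted p = 0.00145). Manf, a secreted ER stress protein, stood at 24.7 to 42.5 in Hap-I hearts, against 57.8, 39.9 and 60.04 in C57 hearts (-0.65 ± 0.15, adjusted p = 0.00927). These 4 were called in each group, and only Manf had an overlap, with C57 heart 2 inside the Hap-I range.

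The other 10 lower ER genes were called in the pooled comparison but not in each group. Calr, the calcium-binding chaperone calreticulin, stood at 75.1 to 160 scaled TPM in Hap-I hearts (median 137), against 216, 202 and 264 in C57 hearts (-0.81 ± 0.17, adjusted p = 0.0068). Hspa5, also called BiP and the main Hsp70 chaperone of the ER, stood at 71.8 to 300.0 in Hap-I hearts (median 183), against 314, 285 and 325 in C57 hearts (-0.83 ± 0.26, adjusted p = 0.0428). Its level was 250.5 ± 33.1 in the aged, 140.0 ± 57.4 in the aged western-diet and 168 ± 58.5 in the adult western-diet group (SD). The remaining 8 were Hsp90b1, Pdia3, Pdia4, Sdf2l1, Dnajb9, Xbp1, Ddit3 and Chac1, at log2 fold changes of -0.88 to -0.34. The 8 listed genes that did not pass included Atf4, a factor of the amino acid and ER stress responses, at -0.24 (adjusted p = 0.138). The count of lower ER genes was 6 without C57 heart 1, 10 without heart 2, 4 without heart 3 and 1 without scaling, with list medians of -0.47, -0.67, -0.47 and -0.54. With a covariate for atrial markers, which were high in C57 hearts 1 and 3, the count was 4 and the median -0.52, and in the 10 hearts with Myl7 below 30 scaled TPM, 1 of them a C57 heart, the count was 0 and the median -0.32. Fibroblast markers, which mark cells that secrete matrix, were lower in the same hearts, and their part in the ER result was not tested. Outside the list, and chosen after their values were seen, Sec62, Sec11a and Selenos, proteins of ER import, signal peptide cleavage and ER-associated degradation, were lower in each group, at -0.57 ± 0.07, -0.70 ± 0.11 and -0.65 ± 0.11 (adjusted p = 0.000235, 0.00159 and 0.00162).

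The clock genes that passed the test were higher if activators and lower if repressors or outputs, and 8 of the 19 did not pass. Of 6 activators 3 rose (50%) and 0 fell, and of 13 repressors and outputs 8 fell (61.5%) and 0 rose, against 9.42% higher and 6.31% lower among all genes. The list medians were 0.34 and -0.58. These lists too were chosen with earlier results of these data known. Arntl, also called Bmal1, stood at 0.917 to 6.08 scaled TPM in Hap-I hearts (median 1.98), against 0.404, 0.675 and 0.181 in C57 hearts (log2 fold change 1.26 ± 0.16, limma adjusted p = 0.00044). Clock, its partner, stood at 1.29 to 4.11 in Hap-I hearts (median 2.82), against 0.603, 1.10 and 0.265 in C57 hearts (1.15 ± 0.18, adjusted p = 0.00145). Both are genes of low level, and in both every Hap-I heart exceeded every C57 heart. Ciart, a repressor of the Arntl-Clock pair whose promoter is printed above, stood at 1.75 to 8.83 in Hap-I hearts (median 4.197), against 9.07, 10.8 and 11.1 in C57 hearts (-1.22 ± 0.17, adjusted p = 0.000979). Hlf, an output factor, stood at 1.35 to 4.82 in Hap-I hearts (median 3.55), against 8.77, 8.78 and 5.84 in C57 hearts (-1.07 ± 0.13, adjusted p = 0.000235). Dbp, another output factor, stood at 1.38 to 11.1 in Hap-I hearts (median 7.26), against 17.7, 12.5 and 14.4 in C57 hearts (-1.21 ± 0.20, adjusted p = 0.00189), and was not called in the aged group alone.

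The clock genes also differed among the Hap-I groups. Arntl averaged 1.24 ± 0.37 scaled TPM in aged hearts, 2.17 ± 0.658 in aged western-diet hearts and 4.57 ± 1.14 in adult western-diet hearts, against 0.42 ± 0.247 in C57 hearts (SD; F test among the Hap-I groups, adjusted p = 0.00692). Hlf averaged 4.65 ± 0.133, 3.29 ± 0.493 and 1.98 ± 0.525 in the same 3 groups, against 7.8 ± 1.69 in C57 hearts (adjusted p = 0.0109). Dbp averaged 8.42 ± 1.85, 8.11 ± 2.03 and 2.92 ± 1.08, against 14.9 ± 2.64 in C57 hearts (adjusted p = 0.0121). The adult western-diet group thus lay farthest from C57 in all 3. Per1 and Per3, core repressors, were not called in the pooled comparison (-0.80 and -0.58, adjusted p = 0.0662 and 0.0544), while Per2, Cry1, Cry2, Nr1d2 and Tef were called at -0.70, -0.37, -0.48, -0.47 and -0.70. The hour at which each heart was taken was not recorded in the labels, so a difference in collection time and a difference between the groups cannot be told apart. Without C57 heart 1, 2 or 3, 3, 3 and 2 activators and 5, 7 and 6 repressors and outputs were called. Without scaling 4 repressors and outputs were called.

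**Figure D4:**
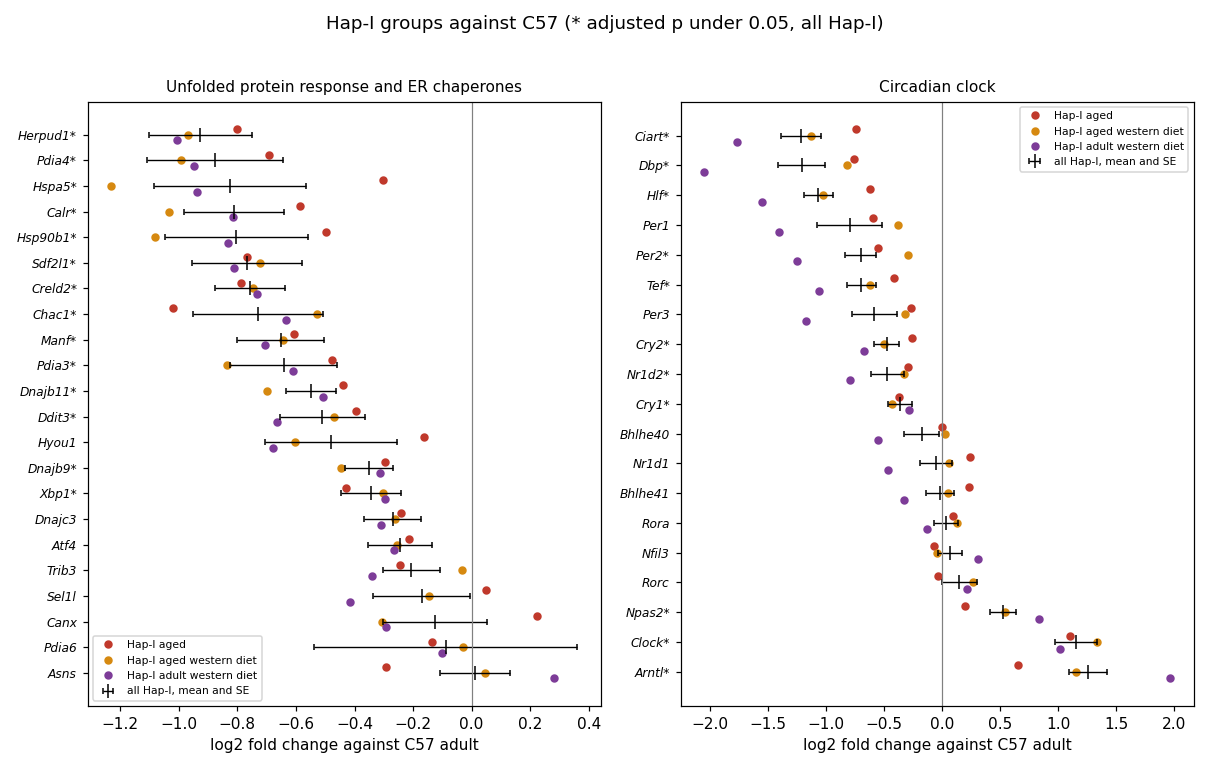
Log2 fold changes against C57 for 22 genes of the unfolded protein response and ER chaperones (left) and 19 clock genes (right). Coloured points are the 3 Hap-I groups, the black tick and bar the pooled comparison with its standard error, and an asterisk marks an adjusted p under 0.05. Of the ER genes, 14 are marked, all left of 0; of the clock genes, 3 activators are marked right of 0 and 8 repressors and outputs left of 0.

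Nuclear genes of oxidative phosphorylation were lower as a tendency, with few of them past the test. Of 37 complex I genes 7 fell (18.9%) and 0 rose (median -0.31), and of 43 genes of complexes II to V 7 fell (16.3%) and 0 rose (median -0.30), against 9.42% higher and 6.31% lower among all genes. Atp5b, the catalytic beta subunit of ATP synthase, stood at 2702 to 4275 scaled TPM in Hap-I hearts (median 3299), against 5304, 5265 and 5514 in C57 hearts (log2 fold change -0.66 ± 0.10, limma adjusted p = 0.00145). Ndufa9, an accessory subunit of complex I, stood at 74.1 to 125 in Hap-I hearts (median 102), against 160, 181 and 166 in C57 hearts (-0.73 ± 0.13, adjusted p = 0.00247). These 2 genes were lower in each group, without overlap. Quantile normalization left 3 and 1 genes called in the 2 lists, with medians of -0.11 and -0.03. Without C57 heart 1, 2 and 3 the counts were 2, 4 and 2 for complex I and 1, 2 and 1 for complexes II to V. With the atrial covariate they were 4 and 4, and without scaling 13 and 11. Of 18 genes of the tricarboxylic acid cycle 3 fell (16.7%) and 1 rose (5.56%), the higher share being below the 9.42% of all genes; 1 fell whichever 1 C57 heart was left out or with the atrial covariate, and 0 without scaling. Fh1, fumarase, stood at 184 to 310 in Hap-I hearts, against 350, 410 and 317 in C57 hearts (-0.58 ± 0.12, adjusted p = 0.00592). Ldhb, the lactate dehydrogenase subunit of oxidative muscle, stood at 139 to 265 in Hap-I hearts, against 363, 434 and 432 in C57 hearts (-1.05 ± 0.18, adjusted p = 0.00193), with 33% of its words in other genes. None of 51 genes of cytosolic ribosomal proteins was called by limma in the pooled comparison, and 3 had an unadjusted p under 0.05. Of 13 mitochondrially encoded genes mt-Nd4l was called higher and mt-Co2 lower, but other genes hold 98.9% and 100% of their words.

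Some genes of adrenergic signalling and excitation were higher in Hap-I hearts. Of 23 adrenergic and endothelin genes 6 rose (26.1%, against 9.42% of all genes) and 0 fell (median 0.17), and 3 rose without C57 heart 1, without C57 heart 3 or with the atrial covariate. Pde4d, a phosphodiesterase that degrades cyclic AMP near calcium channels and ryanodine receptors, stood at 4.44 to 9.86 scaled TPM in Hap-I hearts (median 6.13), against 2.44, 3.30 and 1.95 in C57 hearts (log2 fold change 1.07 ± 0.14, limma adjusted p = 0.000613). Pde4a, of the same family, stood at 14.2 to 19.5 in Hap-I hearts, against 10.9, 9.43 and 8.61 in C57 hearts (0.71 ± 0.09, adjusted p = 0.000341). Both were higher in each group. Adra1b, an alpha-1 adrenergic receptor, stood at 10.2 to 18.9 in Hap-I hearts, against 10.3, 9.40 and 5.98 in C57 hearts (0.60 ± 0.12, adjusted p = 0.00482), with an overlap. Of 26 sodium, potassium and pacemaker channel genes and connexins 5 rose (19.2%) and 1 fell (3.85%), against 9.42% higher and 6.31% lower among all genes, and 3 rose without C57 heart 1, without C57 heart 3 or with the atrial covariate. Kcnd3, a channel of the transient outward potassium current, stood at 1.65 to 2.67 in Hap-I hearts, against 1.19, 1.12 and 0.889 in C57 hearts (0.57 ± 0.09, adjusted p = 0.00176). Kcnj8, a pore subunit of ATP-sensitive potassium channels that pericytes also express, stood at 3.08 to 6.93 in Hap-I hearts, against 6.76, 8.10 and 9.38 in C57 hearts (-0.70 ± 0.12, adjusted p = 0.00235).

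Among 34 sarcomere and Z-disc genes 4 rose (11.8%) and 5 fell (14.7%), against 9.42% higher and 6.31% lower among all genes, so the higher share was near that of all genes. The counts were 1 and 1 without C57 heart 1, 2 and 1 without C57 heart 3, and 1 and 2 with the atrial covariate. Xirp2, an actin-binding protein of the intercalated disc, stood at 18.9 to 62.5 scaled TPM in Hap-I hearts (median 38.2), against 11.8, 17.1 and 11.9 in C57 hearts (1.35 ± 0.19, adjusted p = 0.000654). Its fold change was larger in aged (1.51) and aged western-diet (1.79) than in adult western-diet hearts (0.76; F test adjusted p = 0.0256). Ttn, titin, stood at 30.3 to 100.6 in Hap-I hearts, against 25.3, 28.5 and 28.4 in C57 hearts (1.04 ± 0.22, adjusted p = 0.00734), but was not called without C57 heart 1. Casq1, a calsequestrin best known from skeletal muscle, stood at 0.626 to 5.89 in Hap-I hearts (median 1.94), against 12.3, 8.02 and 10.7 in C57 hearts (-1.63 ± 0.33, adjusted p = 0.00537), and the call was lost with the atrial covariate. Of 37 genes of the actin cytoskeleton, its regulators and MRTF-SRF 7 rose (18.9%) and 1 fell (2.7%), against 9.42% higher and 6.31% lower among all genes; without scaling 2 rose. Trio, a guanine nucleotide exchange factor, stood at 0.607 to 2.50 in Hap-I hearts, against 0.226, 0.442 and 0.282 in C57 hearts (0.83 ± 0.13, adjusted p = 0.00145). Arhgef12, a guanine nucleotide exchange factor downstream of G protein-coupled receptors, stood at 10.8 to 21.5 in Hap-I hearts, against 8.79, 9.26 and 9.24 in C57 hearts (0.68 ± 0.10, adjusted p = 0.000762).

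Of the mouse genes of the angiotensin system, the receptor, the converting enzyme and the precursor did not pass the test. Agtr1a, the mouse type 1 receptor, stood at 10.2 to 19.1 scaled TPM in Hap-I hearts (median 14.5), against 10.5, 13.7 and 9.13 in C57 hearts, a difference that did not pass (log2 fold change 0.32 ± 0.12, limma adjusted p = 0.0872). Ace and Agt, the converting enzyme and the precursor, had values of -0.65 (adjusted p = 0.159) and -0.29 (adjusted p = 0.131). Of 11 genes of the system 2 rose (18.2%, against 9.42% of all genes) and 0 fell. They were Mme (neprilysin, 0.59 ± 0.14, adjusted p = 0.0104) and Nr3c2 (the mineralocorticoid receptor, 0.49 ± 0.12, adjusted p = 0.0127), and both calls were lost without C57 heart 3, without scaling or with the atrial covariate. The natriuretic peptide Nppa stood at 30.6 to 2894 in Hap-I hearts, against 3436, 181 and 2845 in C57 hearts (-2.58 ± 1.01, adjusted p = 0.0937), a spread like that of the other atrial markers. Nppb, Myh7, Myh6 and Acta1, which respond to load or to the fetal program, were not called (0.70, 0.22, 0.09 and 0.61; adjusted p = 0.328, 0.716, 0.864 and 0.292). Nnt, a mitochondrial transhydrogenase that some C57BL/6 substrains lack in part, had reads assigned in all hearts, at 19.2 to 56.2 in Hap-I hearts and 19.1, 26.3 and 17.8 in C57 hearts (0.50 ± 0.25, adjusted p = 0.19). Other genes hold 47.8% of its words, so its level is less certain. A value per gene does not show whether the transcript is whole.

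Some matrix and vessel genes were lower in Hap-I hearts, beside the lower sum of fibroblast markers. Of 32 collagen and fibrosis genes 6 fell (18.8%, against 6.31% of all genes) and 0 rose (median -0.46). With the atrial covariate 1 fell and the median was -0.26. Col1a1 and Col3a1, the main fibrillar collagens, did not pass (-0.73 and -0.79, adjusted p = 0.172 and 0.162). Fmod, fibromodulin, a collagen-binding proteoglycan, stood at 0.14 to 1.84 scaled TPM in Hap-I hearts (median 0.515), against 3.48, 2.23 and 2.33 in C57 hearts (log2 fold change -1.19 ± 0.21, limma adjusted p = 0.00259), and was the only one of them lower in each group. Dcn, decorin, stood at 156 to 247 in Hap-I hearts, against 296, 282 and 284 in C57 hearts (-0.50 ± 0.12, adjusted p = 0.0116), and Sparc at 49.5 to 121 in Hap-I hearts, against 137, 137 and 198 in C57 hearts (-0.76 ± 0.20, adjusted p = 0.0176). Without C57 heart 1 or 3 the count of lower matrix genes was 1, without heart 2 it was 8, and without scaling it was 2. Of 14 markers of smooth muscle and pericytes 13 were kept and 4 fell (30.8%, against 6.31% of all genes), or 2 without C57 heart 1, without C57 heart 3 or with the atrial covariate. Among them was Myh11, the smooth muscle myosin heavy chain, at 0.395 to 3.27 in Hap-I hearts against 4.36, 3.64 and 4.26 in C57 hearts (-0.98 ± 0.17, adjusted p = 0.002). The endothelial list had 3 of 15 lower (20%) and 0 higher, and 0 lower whichever 1 C57 heart was left out or with the atrial covariate. Chosen after their values were seen, Icam2, an adhesion molecule of endothelium, and Pgf, placental growth factor, were lower in each group (-0.66 ± 0.12 and -0.90 ± 0.17, adjusted p = 0.00275 and 0.00338). The part of cell numbers in these results was not tested.

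Some interferon response genes were lower in Hap-I hearts, while the list as a whole had no common direction. Of 31 genes 4 fell (12.9%, against 6.31% of all genes) and 0 rose (median -0.12), with medians of -0.52 in the aged, 0.24 in the aged western-diet and -0.19 in the adult western-diet group. Without C57 heart 3 the count was 1 and the median 0.03, and with the atrial covariate 2 and -0.06. None of the 15 macrophage markers kept was called by limma, with 3 at an unadjusted p under 0.05. Irf1, a transcription factor that interferon gamma induces, stood at 7.99 to 12.96 scaled TPM in Hap-I hearts (median 9.82), against 15.5, 14.5 and 15.9 in C57 hearts (log2 fold change -0.60 ± 0.10, limma adjusted p = 0.00214). Gbp2 and Iigp1, interferon-induced GTPases, were lower in each group (-0.97 ± 0.21 and -0.89 ± 0.20, adjusted p = 0.00776 and 0.00921), with an overlap of both; these 2 calls were lost without C57 heart 3. Psme1, a subunit of the proteasome activator that interferon gamma induces, stood at 82.3 to 119 in Hap-I hearts, against 126, 132 and 126 in C57 hearts (-0.40 ± 0.08, adjusted p = 0.00677).

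The genes called in each group also included 1 listed gene of lipid synthesis, 1 of iron handling and some transcription factors. Srebf1, the regulator of fatty acid synthesis, stood at 6.28 to 10.8 scaled TPM in Hap-I hearts (median 9.14), against 4.55, 5.26 and 4.06 in C57 hearts (log2 fold change 0.77 ± 0.11, limma adjusted p = 0.00104). The list of cholesterol and fatty acid synthesis had 4 higher (16.7%) and 3 lower (12.5%) among 24 genes, against 9.42% higher and 6.31% lower among all genes, and 1 and 0 without C57 heart 1, 2 and 1 without C57 heart 3 and 2 and 0 with the atrial covariate. Fasn, fatty acid synthase, was among the lower ones (-1.01 ± 0.28, adjusted p = 0.0245; lost without C57 heart 1 or 3). Tfrc, the transferrin receptor, stood at 5.02 to 33.1 in Hap-I hearts (median 15.6), against 4.21, 5.31 and 4.28 in C57 hearts (1.49 ± 0.33, adjusted p = 0.00777), and the call was lost without C57 heart 1 or 3. The iron list had 2 higher (13.3%) and 1 lower (6.67%) among 15 genes, against 9.42% higher and 6.31% lower among all genes. Smad3, the signal transducer of TGF-beta, stood at 2.94 to 4.03 in Hap-I hearts, against 2.43, 2.19 and 1.94 in C57 hearts (0.47 ± 0.07, adjusted p = 0.00145). It was the 1 gene called higher among 20 of the TGF-beta pathway (5%, below the 9.42% of all genes), and 0 were lower. Irx4, the homeobox factor of ventricle, stood at 8.08 to 12.4 in Hap-I hearts, against 6.36, 6.91 and 7.28 in C57 hearts (0.58 ± 0.10, adjusted p = 0.00277). Chosen after their values were seen, Gata4, Prox1, Nfix and the kinase Prkcq were higher in each group, at log2 fold changes of 0.57 ± 0.08, 0.94 ± 0.11, 0.85 ± 0.11 and 1.05 ± 0.09 (adjusted p = 0.00101, 0.000235, 0.00044 and 6.11e-05). Gata4, a core cardiac transcription factor, stood at 38.3 to 49.8 in Hap-I hearts, against 30.6, 29.9 and 26.5 in C57 hearts.

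Differences among the Hap-I groups were tested apart from C57. Among all genes 399 differed between the 3 Hap-I groups (3.5%, F test), and of the 214 genes 17 did (7.94%), 13 higher and 4 lower. Hearts without Y-linked transcripts were found only in the western-diet groups, so these differences are not balanced for sex. With a covariate for absent Y-linked transcripts 203 genes differed among the groups. The 136 higher genes had longer transcripts, with a median of 3045 bases, against 1612 in the 78 lower genes and 2043.5 over all genes with a length. Across 11328 genes, which are not independent, the fold change and log2 length had a rank correlation of 0.229. In 4 equal bins of length, from short to long, 5.47%, 6.15%, 9.6% and 16.4% of the genes were called higher and 8.12%, 9.11%, 4.98% and 3.11% lower. The relation of single hearts with length averaged 0.061 ± 0.296 in Hap-I hearts (SD, n = 13) and -0.182 ± 0.092 in C57 hearts (SD, n = 3), which an exact two-sided permutation test did not separate (p = 0.186). With transcript length corrected per library, 931 genes were higher and 827 lower, and of the 214 genes 153 stayed called in each group and 213 in the pooled comparison. With a covariate for absent Y-linked transcripts 71 of them stayed called in each group and 214 in the pooled comparison, and with a covariate for atrial markers 45 and 192. In the 10 hearts with Myl7 below 30 scaled TPM, which hold 1 C57 heart, 2 genes in all were called in the pooled comparison and 0 of the 214 in each group.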

How the data were processed

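Polyadenylated RNA of 16 mouse hearts was sequenced from stranded libraries, per the labels' protocols. The authors deposited 1 table of TPM per gene, per the file headers; the submitters' processing notes name kallisto, DESeq2 and GRCm38 without versions. TPM keep no depth, so no count test or counting error could be given. Groups were taken from the sample labels. Of 30153 genes, 11415 reached 1 TPM in 3 or more libraries and entered the fit. Each library was scaled by its median-of-ratios size factor, and log2(scaled TPM + 1) was fitted with limma 3.58.1 in R 4.3.3, with a mean per group in 1 model of all 16 libraries and a variance trend. Fold changes are on that scale and understate changes of low genes. Contrasts were each Hap-I group minus C57, their equal-weight mean minus C57, and an F test among Hap-I groups, each adjusted by Benjamini-Hochberg at 0.05 over all genes. The fit was tested on simulated data with independent noise in each gene and library. Those data held no differences in atrial content, length relation or sex, so that test does not cover them. Named were the 12 genes with the largest change each way among those called in each group, without overlap and with a mean of 5 scaled TPM or more in the genotype with the higher level, 11 genes fixed by name, and up to 4 called members per list by smallest p; further ER and clock members, Sec62, Sec11a, Selenos, Icam2, Pgf, Gata4, Prox1, Nfix and Prkcq were chosen after their values were seen. Some genes that this rule names are not reported here. The members and the 54 gene lists were chosen with earlier results of these data known. Shared 31-base words were counted in GENCODE M21 transcripts, since the authors' index is not given in the sources used here. Alternatives were no scaling, quantile normalization, scaling without mitochondrial genes, a pseudocount of 0.1, other filters, no variance trend, library weights, a stricter threshold, covariates for sex and atrial markers, 1 mean for all Hap-I hearts, a length correction and the omission of each library.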

Additional observations from a re-analysis of the deposited data

Results flagged for a closer look

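Among 453 groups of 4 or 5 hearts examined for the named genes, 25 held 1 heart far from the others by Dixon's gap over the group's range. Chance flags about 1 in 20, which is close to the number found, so single flags may be chance. The heart that stood apart in most genes was aged western-diet heart 5. It was high in Gm10800 (352 scaled TPM, nearest heart 47.1), Gbp2 (16.3, nearest 7.61) and Casq1 (5.06, nearest 1.94), and low in Arhgap5 (3.96, nearest 6.20), Nt5c1a (4.01, nearest 7.82), Golga4 (19.3, nearest 32.6), Ulk2 (11.8, nearest 18.8) and Entpd4 (11.9, nearest 22.8). Adult western-diet heart 4 was high in Nnt (38.5, nearest 21.5), Nfkbia (15.6, nearest 12.2), Klf9 (20.4, nearest 14.6) and Scgb1a1 (4.52, nearest 0.487), and adult western-diet heart 1 was high in Gm10800 (29.7, nearest 8.46) and Upk3b (2.27, nearest 0.456) and low in Nt5c1a (2.72, nearest 4.45). Adult western-diet heart 2 was high in Ighg2c (13.6, nearest 7.51) and Smad3 (3.81, nearest 3.38). Aged heart 3 was high in Nppa (2894, nearest 477) and Entpd4 (56.1, nearest 36.9), aged heart 2 was high in Sparc (107, nearest 103) and low in Slc25a37 (2.04, nearest 2.52), and aged heart 1 was high in Scgb1a1 (0.108, the others listed at 0). Aged western-diet heart 4 was high in Nfkbia (18.1, nearest 12.04), and aged western-diet heart 3 was high in Kcnd3 (2.61, nearest 2.11) and Dpt (41.3, nearest 36.2).

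Of the named genes, 22 differed among the 3 Hap-I groups by limma's F test, and so had fold changes against C57 of unequal size. Clock genes were Arntl (adjusted p = 0.00692), Hlf (0.0109), Dbp (0.0121), Ciart (0.0256), Npas2 (0.0277) and Tef (0.0376). Genes of muscle, cytoskeleton and signalling were Arhgef12 (0.0200), Tns1 (0.0251), Xirp2 (0.0256), Dsp (0.0370) and Trio (0.0486). Markers of other cell types were Myl9 (0.0179), Myh11 (0.0198), Mfap5 (0.0200) and Pvalb (0.0251). The remaining genes were Cds1 (0.0198), Pfkfb2 (0.0264), Qk (0.0264), Entpd4 (0.0308), Slc25a37 (0.0342), Cd59a (0.0348) and Rbm20 (0.0417). Aged hearts had the largest fold change against C57 in Entpd4 (1.56 aged, 0.65 aged western diet, 0.59 adult western diet), and the same order of size held for Mfap5 in the negative direction (-0.84, -0.25 and -0.21). Other genes hold all 31-base words of Entpd4, which leaves its level uncertain.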

How the results depend on the processing

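The 5 counts are given in the order higher and lower in all Hap-I hearts, higher and lower in each Hap-I group, and differing among the Hap-I groups; as reported they were 1075, 720, 136, 78 and 399. They were 178, 205, 11, 11 and 97 without scaling, 2034, 1821, 620, 470 and 3241 with library weights, 412, 219, 20, 7 and 22 at an adjusted p under 0.01, 708, 450, 49, 26 and 203 with a covariate for absent Y-linked transcripts, and 346, 217, 31, 15 and 188 with an atrial covariate. With no filter 71 genes were higher in each group and 223 differed among groups; at a filter of 5 TPM 463 were lower in all Hap-I hearts and 206 differed among groups; with 1 mean for all Hap-I hearts 474 were lower. Omitting 1 library gave 352 to 1252, 205 to 860, 22 to 197, 12 to 105 and 89 to 742. Chosen after the data were seen, the 11 hearts with Y-linked transcripts gave 716 higher in all, 24 and 15 in each group and 90 among groups, and the 10 hearts with Myl7 below 30 scaled TPM gave 1, 1, 0, 0 and 5, with a lone C57 heart assumed to vary like the other groups. Quantile normalization, scaling without mitochondrial transcripts, a pseudocount of 0.1, no variance trend and the length correction kept all 5 counts within 1.5 times. Of the 24 leading genes 20 kept their call in the pooled comparison in all 28 planned fits that tested them. Those fits used an adjusted p under 0.05, and whether these genes kept their calls in each group was not counted. Myh6, not called, had a log2 fold change of 0.09 as reported, ran from -0.00475 (without C57 heart 3) to 0.197 with 1 library omitted, and changed to -0.249 in the low-Myl7 hearts. The causes were not tested. No paired analysis was possible because replicate numbers were given in accession order and name no shared animal, litter or day. The TPM table leaves the depth of low genes unknown.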
